A study of Caenorhabditis elegans with 6 samples.

Results

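The abu and pqn genes of Caenorhabditis elegans are named for glutamine- and asparagine-rich, prion-like protein sequence (pqn) or for activation when the unfolded protein response is blocked (abu). All genes of the counts table whose WormBase symbol starts with abu- or pqn- and a number were taken, together with marg-1, which gave 71 of 46748 genes: 14 abu genes, 56 pqn genes and marg-1. RNA was sequenced from whole hermaphrodites of the wild-type strain N2 at 5 days after the L4 larval stage, on feeding RNAi, in which worms eat bacteria that make double-stranded RNA. By the perturbation label, 3 libraries came from animals on L4440, the feeding plasmid without an insert, and 3 from animals on bacteria against T25B9.1, a predicted glycine C-acetyltransferase of threonine breakdown. All animals were of wild-type genotype. The source name of all 6 samples says T25B9.1 RNAi, and the groups follow the perturbation label. The labels do not say whether libraries came from separate cultures, so p-values cover only the variation among these 6 libraries, part or all of which may be technical.

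Proteins of the abu family resemble the engulfment receptor CED-1 in part and carry glutamine- and asparagine-rich stretches. Several abu and pqn genes that form a paralogous group are known from the pharynx, the feeding organ, where their transcripts cycle with the larval moults and their products are part of the cuticle that lines the pharyngeal lumen. The pqn name records protein composition, and its bearers also include genes of other kinds, such as pqn-59, the worm counterpart of human UBAP2L, an RNA-associated protein of stress granules, and pqn-41, which takes part in the death of the male linker cell. All abu-named genes were taken here as the pharyngeal family and set beside the pqn genes. Per-gene pharyngeal expression was not checked, so this split by name does not separate pharyngeal genes from the rest.

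Library totals ran from 25480225 to 38621940 counted reads. The targeted gene had 90, 92 and 132 counts in the L4440 libraries and 219, 317 and 430 in the T25B9.1-labelled libraries, a 3.31-fold higher level (log2 fold change 1.73, SE 0.245, edgeR adjusted p = 0.00483). The counts of the target thus went against the label, and counts per gene do not show where in the gene the reads lie. Each direction below sets the T25B9.1 label against the L4440 label. Of 13494 genes tested, 461 (3.42%) were called at an edgeR quasi-likelihood adjusted p of 0.05; 152 (1.13%) were higher and 309 (2.29%) lower.

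The abu genes had very few reads at this age. No abu gene had more than 39 counts in any library, and the mean level over the 6 libraries, in CPM (counts scaled to the normalised library total), was below 1 for each of the 14 genes. Among them, 3 (abu-2, abu-5 and abu-9) had no count in any library, where 3 counts over all 6 libraries would stand for 0.0156 CPM. A further 6 had between 1 and 20 counts in total, and 10 of the 14 stayed below 10 counts in every library. Only abu-10, abu-13 and abu-14 had enough counts to be tested.

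The pqn genes covered a far wider range. Of the 56, 44 were tested, 35 had a mean above 1 CPM and 21 a mean above 10 CPM, while 5 had no count at all. The gene of highest level was pqn-59, with 1107, 1171 and 970 CPM in the L4440 libraries and 1052, 1209 and 1062 CPM in the T25B9.1-labelled libraries. Its groups overlapped (log2 fold change 0.03, SE 0.107, edgeR adjusted p = 0.947). Scaled to exon length so that genes can be compared, the mean level was 473 CPM per kilobase for pqn-59, 155 for pqn-51, 115 for pqn-52 and 15.0 for pqn-41. On the same scale it was 0.886 for marg-1, 0.633 for abu-14, 0.407 for abu-13 and 0.274 for abu-10. Over the tested members of each family the median level was 5.16 CPM per kilobase for pqn and 0.407 for abu.

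**Figure D1:**
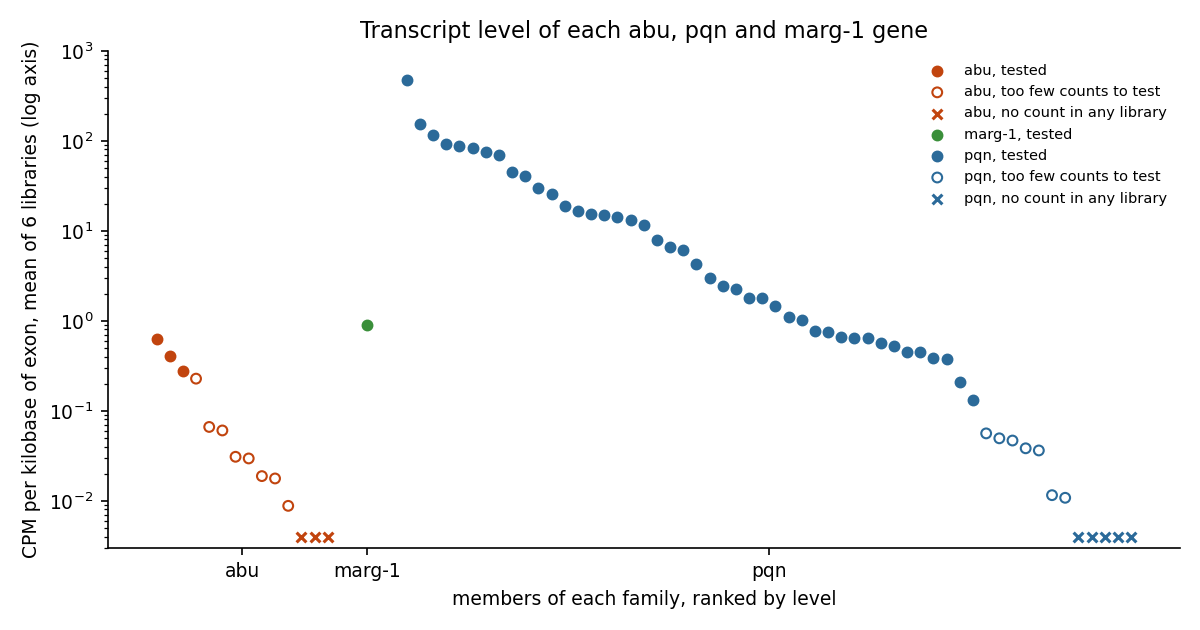
Mean level over the 6 libraries of each abu, marg-1 and pqn gene, in CPM per kilobase of exon on a log axis, with genes ranked within their family; filled points were tested, open points had too few counts, and crosses at the foot mark genes with no count in any library. Every abu gene lies below 1 CPM per kilobase, while pqn-59 reaches 473.

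Members that lie close together in the genome all had few counts. In build WBcel235 (Ensembl release 115), 12 members lie within 3000 bases of another member, 6 abu and 6 pqn genes. They include abu-15, abu-6 and abu-7 on chromosome V, abu-1 and pqn-2 on the same chromosome, abu-9 and pqn-57 on chromosome X, and abu-5, pqn-78 and pqn-79 on chromosome IV. None of the 12 was tested, and the largest total over all 6 libraries among them was 8 counts. Members far from any other could be as low, such as abu-2, with no count and 951226 bases from the nearest member. The gene models of abu-5, pqn-76, pqn-78 and pqn-79 have the same exon length of 1008 bases, and all 4 had no count. How the counting treated reads that match several copies is not stated by the sources at hand, so a count of 0 for such genes is uncertain. The abu genes lie on chromosomes V (6 genes), X (4), II (2), III (1) and IV (1), and the pqn genes on all 6 chromosomes.

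Of the 48 tested members, 5 rose under the T25B9.1 label and none fell, beside 1.13% and 2.29% of all tested genes. They were abu-10, marg-1, pqn-36, pqn-31 and pqn-94, and abu-10 entered the test only through the group where it was high. Leaving out 1 library lowered the count to 3 or 4. At an unadjusted p of 0.05, 8 members were higher and 1 lower by edgeR, where 13.1% of all tested genes reached it in either direction. DESeq2 called 5 members higher and none lower, where it called 187 higher and 401 lower of all 13494 tested genes. By limma-voom, 4 members were called higher and none lower, beside 141 higher and 293 lower of all 13494. The median log2 fold change was 0.73 over the 3 tested abu genes, 0.10 over the 44 pqn genes and 0.0080 over all tested genes. The abu median depends on abu-10, which was tested only through its high group. The other tested abu genes stood at 0.73 (abu-14) and -0.05 (abu-13). The abu median is the value of abu-14, which did not pass. Without L4440 replicate 3 the median was 0.27 and without L4440 replicate 1 it was 0.38, each over 4 tested abu genes instead of 3. The value of abu-14 itself was 0.47 and 0.65 in those fits. The pqn median was 0.018 without L4440 replicate 3 and 0.15 without L4440 replicate 1. Leaving T25B9.1 replicate 2 out gave a pqn median of 0.020. In whole animals, a change in the amount of a tissue and a change of RNA per cell cannot be told apart.

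The largest change among the members was in abu-10, on the plus strand of chromosome X (chrX:3798182-3799741), an abu gene with no overlapping exon of another gene. It had 4, 4 and 2 counts in the L4440 libraries and 21, 13 and 21 in the T25B9.1-labelled libraries. All 3 T25B9.1-labelled libraries lay above all 3 of L4440. The level went from 0.108 ± 0.0555 to 0.586 ± 0.0623 CPM (SD, n = 3), with a log2 fold change of 2.51 by edgeR (SE 0.397, adjusted p = 0.00544). The ratio of the summed counts, 55 against 10, was 5.91 with an exact Poisson 95% interval of 2.98 to 13.0, which covers counting error only. The gene exceeded the count filter of 0.301 CPM in no L4440 library and in all 3 labelled T25B9.1, so it entered the test only through the group where it was high.

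The other abu genes gave less. The counts of abu-14 were 21, 25 and 18 in the L4440 libraries and 28, 33 and 39 in the T25B9.1-labelled libraries. The raw counts were separate, but in CPM the L4440 replicate 2 library, at 1.001 CPM, lay above the lowest T25B9.1-labelled library, at 0.861. Its log2 fold change of 0.73 (SE 0.301) did not pass (edgeR adjusted p = 0.318). For abu-13 the counts were 32, 18 and 25 against 16, 26 and 25, and the groups overlapped (log2 fold change -0.05, SE 0.299, edgeR adjusted p = 0.974). Its gene model shares 19 bases with F57B9.3 on the other strand. At these depths single libraries were imprecise: the exact 95% Poisson interval of the 21 counts of abu-14 ran from 13.0 to 32.1.

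Among the abu genes with too few counts to test, abu-8 had 1, 2 and 2 counts against 6, 3 and 5, and abu-11 had 8, 10 and 9 against 8, 4 and 18. The abu-8 counts did not overlap between groups and those of abu-11 did. The genes near abu-8, namely abu-6, abu-7 and abu-15, had at most 3 counts in any library. Summed over all 14 abu genes, the level was 2.10, 2.68 and 1.69 CPM in the L4440 libraries and 2.74, 3.57 and 3.37 CPM in the T25B9.1-labelled libraries, so the sums were separate. Without abu-10 the sums were 1.99, 2.52 and 1.64 against 2.09, 3.05 and 2.78 CPM, and the groups overlapped.

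The gene marg-1 lies on the minus strand of chromosome X (chrX:3778056-3781140), 17042 bases from abu-10, and no other member lies closer to either. Its exons share 44 bases with F47B7.2 and F47B7.13 on the other strand, and reads from them cannot be told apart without strand. It had 35, 33 and 35 counts in the L4440 libraries and 73, 38 and 79 in the T25B9.1-labelled libraries. T25B9.1 replicate 2 was the lowest of its group, at 1.52 CPM, and stood only slightly above the highest L4440 library at 1.32 CPM. The counting intervals of those libraries overlapped, from 1.08 to 2.09 CPM and from 0.909 to 1.85 CPM. The level went from 1.07 ± 0.231 to 2.00 ± 0.409 CPM (SD, n = 3), with a log2 fold change of 0.95 by edgeR (SE 0.222, adjusted p = 0.0429). This edgeR call was lost when L4440 replicate 1, 2 or 3 was left out (adjusted p = 0.0902, 0.0507 and 0.197), when T25B9.1 replicate 1 or 3 was (0.172 and 0.132), and by limma-voom (0.0553).

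Of the pqn genes, 3 of 44 (6.82%) rose and none fell by edgeR, beside 1.13% and 2.29% of all tested genes. At an unadjusted p of 0.05 by edgeR, 5 were higher and 1 lower, or 13.6% beside 13.1% of all tested genes. DESeq2 and limma-voom each called 3 pqn genes, where they called 588 and 434 of all 13494 tested genes. The largest rise was in pqn-36, on the minus strand of chromosome X (chrX:15409148-15415493). It had 138, 71 and 93 counts in the L4440 libraries and 209, 194 and 282 in the T25B9.1-labelled libraries. The lowest T25B9.1-labelled library stood at 6.43 CPM and the highest of L4440, replicate 1, at 3.97 CPM, with counting intervals that did not meet (5.59 to 7.36 and 3.34 to 4.69 CPM). The level went from 3.04 ± 0.847 to 7.38 ± 0.828 CPM (SD, n = 3), or 2.43 times as much (log2 fold change 1.28, SE 0.189, edgeR adjusted p = 0.00380).

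The gene pqn-31, on the plus strand of chromosome V (chrV:9109581-9111013), had 250, 198 and 309 counts in the L4440 libraries and 415, 263 and 471 in the T25B9.1-labelled libraries. The L4440 libraries were close together, at 7.60 ± 0.371 CPM, while those labelled T25B9.1 were higher and more spread, at 12.2 ± 1.44 CPM (SD, n = 3). T25B9.1 replicate 2 was the lowest of the latter at 10.6 CPM and stood above all of L4440. The difference was 1.61-fold (log2 fold change 0.69, SE 0.114, edgeR adjusted p = 0.00744). No exon of another gene overlaps pqn-36 or pqn-31.

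The short gene pqn-94 (chrV:20278654-20279861, minus strand, 382 bases of exon) had 154, 98 and 184 counts in the L4440 libraries and 191, 155 and 265 in the T25B9.1-labelled libraries. Its CPM values were 4.43, 3.92 and 4.58 against 5.87, 6.22 and 7.45, with no overlap. The difference was 1.51-fold (log2 fold change 0.59, SE 0.135, edgeR adjusted p = 0.0386). It did not pass without any 1 library (edgeR adjusted p = 0.0750, 0.156 and 0.0919 for the L4440 replicates in order, and 0.0599, 0.0706 and 0.145 for the T25B9.1 replicates) or among genes with a mean of at least 50 counts (0.0528).

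**Figure D2:**
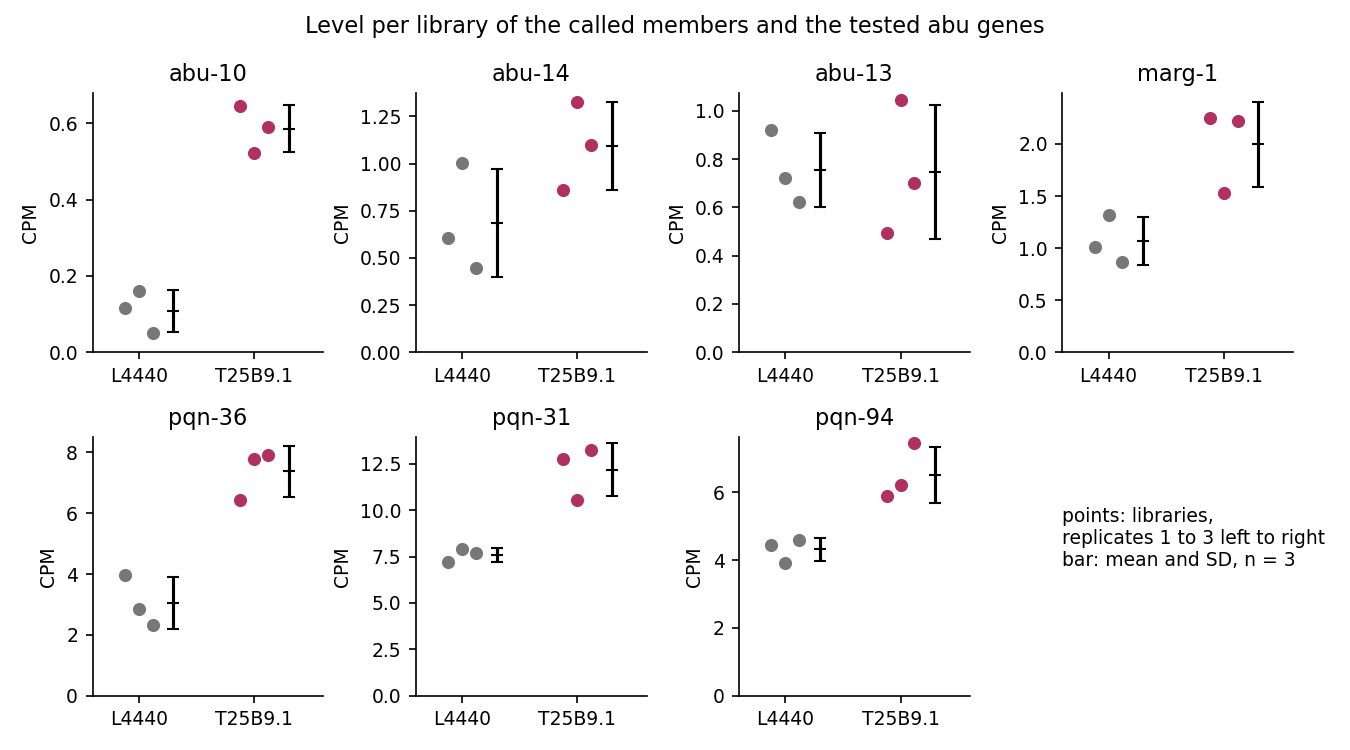
CPM in each library of the 5 members that passed the test and of abu-13 and abu-14; points are libraries, grey for L4440 and red for T25B9.1, and the bar beside each group is the mean with its SD (n = 3). The groups are separate for abu-10, marg-1, pqn-36, pqn-31 and pqn-94 and overlap for abu-13 and abu-14.

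The remaining tested pqn genes ranged from -0.67 to 0.69 in log2 fold change, and none passed by edgeR. Over all 44, 29 were positive and 15 negative. Among the genes that did not pass, the highest value belonged to pqn-67, with a log2 fold change of 0.69 by edgeR (SE 0.219, adjusted p = 0.154). Its level was 0.748, 0.640 and 0.647 CPM in the L4440 libraries and 1.08, 0.923 and 1.26 CPM in the T25B9.1-labelled libraries. The lowest value belonged to pqn-73, at 1.70, 1.32 and 1.64 CPM against 0.984, 1.28 and 0.759 CPM (log2 fold change -0.67, SE 0.223, edgeR adjusted p = 0.184). Both genes had separate groups. Across all 48 tested members the CPM ranges of the groups did not overlap for 12, of which 9 were higher and 3 lower; over all tested genes this held for 17.9%, 8.29% higher and 9.6% lower.

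**Figure D3:**
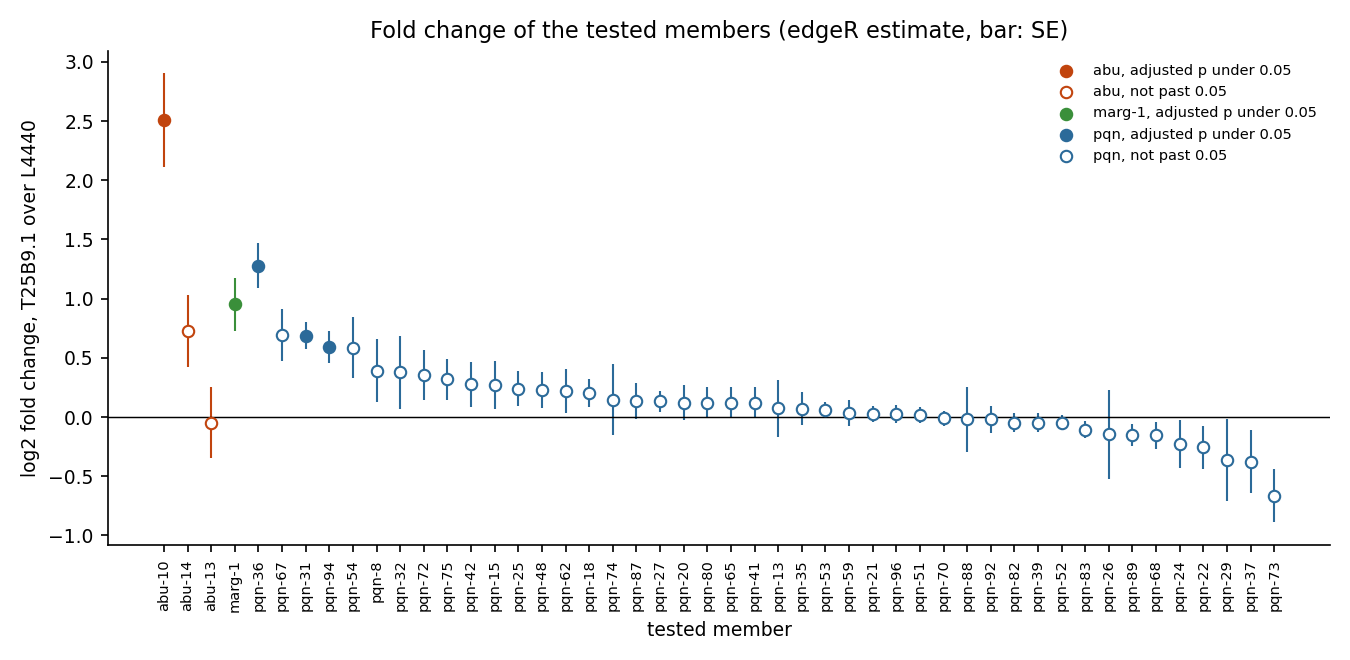
Log2 fold change (T25B9.1 over L4440) of each of the 48 tested members with its SE, by family and in order of size; filled points have an edgeR adjusted p under 0.05. All 5 filled points are above 0, from 0.59 for pqn-94 to 2.51 for abu-10.

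Some of the most abundant pqn genes were among the steadiest members. The CPM of pqn-51 was 255, 248 and 252 in the L4440 libraries and 251, 250 and 263 in the T25B9.1-labelled libraries. For pqn-52 the values were 250.1, 250.0 and 255 against 244, 239 and 247, and for pqn-70 they were 182, 181 and 188 against 180.2, 179 and 186. The coefficient of variation within a group was 1.14% to 2.95% for these genes. Their log2 fold changes were 0.02 (SE 0.0652), -0.05 (SE 0.0637) and -0.01 (SE 0.0603), and none passed by edgeR (adjusted p = 0.953, 0.841 and 0.965). The groups of pqn-52 did not overlap, although they differed by only a few percent.

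The longest pqn genes varied much more than these steady genes, and most did so together. Of 7 tested pqn genes with over 4000 bases of exon (pqn-15, pqn-20, pqn-41, pqn-62, pqn-65, pqn-80 and pqn-87), 6 were highest among the L4440 libraries in replicate 1 and 6 lowest in replicate 3. Within the T25B9.1-labelled libraries, 6 were highest in replicate 2. For pqn-87 the CPM was 566, 473 and 393 in the L4440 libraries and 462, 636 and 475 in the T25B9.1-labelled libraries. The values of pqn-20 were 382, 287 and 259 against 297, 382 and 332. The coefficient of variation of the 7 genes within a group was 10.6% to 23.6%. Shorter pqn genes could vary as much, such as pqn-24 with 997 bases of exon, at 17.5% under L4440 and 27.7% under T25B9.1. The log2 fold changes of the 7 long genes, 0.12 to 0.27, did not pass by edgeR (smallest adjusted p = 0.682).

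The same order of libraries was seen over all long genes. Among 732 tested genes with over 4000 bases of exon, the median deviation from a gene's mean, on a scale of log2(CPM + 0.5), was 0.15 in L4440 replicate 1, -0.15 in replicate 2 and -0.16 in replicate 3. In the T25B9.1-labelled libraries it was -0.03, 0.17 and 0.0038. The 7 long pqn genes had medians of 0.19, -0.12 and -0.30, then -0.10, 0.30 and -0.0090. Genes of up to 1000 bases deviated the other way in the 4 libraries that stood out, with medians of -0.05, 0.05 and 0.04 under L4440 and -0.04 in T25B9.1 replicate 2. By exon length, the median log2 fold change over all tested genes was -0.03 up to 1000 bases and -0.0052 over 1000 to 2000. It was 0.04 over 2000 to 4000 bases and 0.10 over 4000. The part of exon length in the pqn median was not tested. The 5 members that passed have 382 to 3612 bases of exon. For pqn-36, the longest of these, the deviations were -0.22, -0.64 and -0.89 under L4440 and 0.41, 0.66 and 0.69 under T25B9.1. Within L4440 this is the order of the long genes. Within T25B9.1 its lowest library, replicate 1, was also theirs, but its highest was replicate 3. The medians of genes with over 2000 and up to 4000 bases ran from -0.07 to 0.07, which does not give the spread of single genes. The part of exon length in the change of pqn-36 was not tested.

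**Figure D4:**
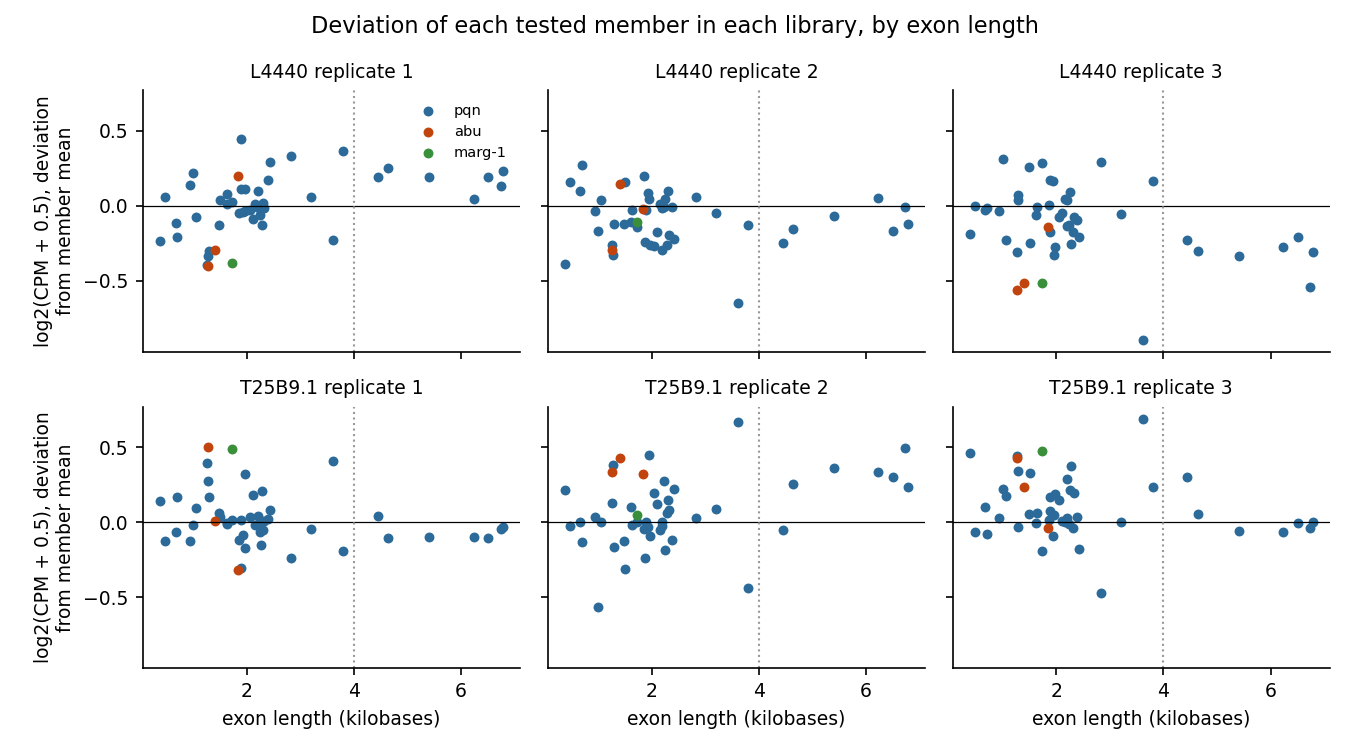
Deviation of each tested member from its own mean over the 6 libraries, on the log2(CPM + 0.5) scale, against exon length in kilobases, with 1 panel per library; the dotted line marks 4 kilobases. Members right of the line lie mostly above 0 in L4440 replicate 1 and T25B9.1 replicate 2 and mostly below 0 in L4440 replicate 3.

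Genes that share the pharynx, the endoplasmic reticulum or the moult with the abu family were set beside it. No gene of these lists passed by edgeR. Over all tested genes, 52.6% had a positive log2 fold change and 13.1% an unadjusted p under 0.05, and the counts of each list stand beside those shares. Of 6 pharyngeal muscle genes, 5 had a positive log2 fold change, with a median of 0.61. The pharyngeal myosin gene myo-2 had 15.2, 8.69 and 7.09 CPM in the L4440 libraries and 14.9, 14.4 and 20.0 CPM in the T25B9.1-labelled libraries. These values overlapped through L4440 replicate 1 (log2 fold change 0.67, SE 0.277, edgeR adjusted p = 0.353). Leaving that library out gave a log2 fold change of 1.05 (edgeR adjusted p = 0.00933). Leaving out any other single library gave 0.45 to 0.75, and myo-2 did not pass (edgeR adjusted p = 0.429 to 0.692). Within L4440 the order of myo-2 was that of the long genes above. The part of exon length in the changes of this list was not tested. In the same list 4 genes had an unadjusted p under 0.05, and DESeq2 and limma-voom each called myo-1, another pharyngeal myosin gene (log2 fold change 0.90, SE 0.243, edgeR adjusted p = 0.111). The most abundant gene of the list, tni-4, was its only negative gene, with means of 21.8 CPM under L4440 and 21.0 CPM under T25B9.1. Its log2 fold change was -0.05 by edgeR (SE 0.0866, adjusted p = 0.882). The summed level of the list was 44.0 to 62.5 CPM under L4440 and 61.1 to 77.4 CPM under T25B9.1, so the ranges overlapped. None of its 6 genes was at 0. The part of pharyngeal muscle in the rises of abu-10 and marg-1 was not tested.

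The other pharyngeal lists were smaller in median change. Of 7 pharyngeal gland genes 4 were tested, 3 of them positive, with a median of 0.26, and the summed level was 7.34 to 7.99 CPM under L4440 and 7.22 to 8.95 CPM under T25B9.1. Of 32 genes of pharyngeal chitin and cuticle (the chitin synthase gene chs-2 and the idpa, idpb, idpc and idpp genes) 11 were tested, 6 of them positive, with a median of 0.05. For chs-2 the level was 9.50, 4.60 and 5.72 CPM against 6.55, 7.74 and 6.41 CPM, which overlapped (log2 fold change 0.05, SE 0.236, edgeR adjusted p = 0.966). At an unadjusted p of 0.05 there were 0 gland genes and 3 chitin and cuticle genes. These 3, idpp-14, idpp-15 and idpp-16, were higher, with log2 fold changes of 1.09 (SE 0.278), 0.75 (SE 0.213) and 0.39 (SE 0.114) and edgeR adjusted p of 0.0676, 0.105 and 0.115. The groups were separate for 4 of the 11 genes, all of them higher, where 8.29% of all tested genes were separate and higher. Another 5 of the 11 were negative, down to idpc-2, whose groups overlapped (log2 fold change -0.71, SE 0.341, edgeR adjusted p = 0.426). For these lists, neither DESeq2 nor limma-voom called any.

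Neither the unfolded protein response nor the engulfment genes passed. Of 18 genes of endoplasmic reticulum stress, 16 were positive but small, with a median of 0.07 and 1 unadjusted p under 0.05. The chaperone gene hsp-4 (BiP) had 406, 418 and 373 CPM in the L4440 libraries and 412, 442 and 404 CPM in the T25B9.1-labelled libraries, and the groups overlapped (log2 fold change 0.07, SE 0.0795, edgeR adjusted p = 0.814). The response's transcription factor gene xbp-1 had a log2 fold change of 0.02 by edgeR (SE 0.0609, adjusted p = 0.936). Of 8 tested engulfment genes none had an unadjusted p under 0.05, and ced-1, the receptor that abu proteins resemble, had a log2 fold change of 0.05 by edgeR (SE 0.0829, adjusted p = 0.882). DESeq2 and limma-voom called no gene of either list.

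Moulting genes, which would be raised by larvae in the sample, had a summed level of 180 to 229 CPM in the L4440 libraries and 203 to 227 CPM in the T25B9.1-labelled libraries. Of 17 tested genes of this list 14 were positive, with a median log2 fold change of 0.16; 3 had an unadjusted p under 0.05, none of the 18 was at 0 in all libraries, and DESeq2 called mlt-7 while limma-voom called none. The moulting regulator gene nhr-23 was at 85.0 CPM on average under L4440 and 89.9 CPM under T25B9.1 (log2 fold change 0.08, SE 0.0981, edgeR adjusted p = 0.833). It was the most abundant gene of the list and made up a large part of the summed level. The part of larval RNA in the low abu counts was not tested.

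**Figure D5:**
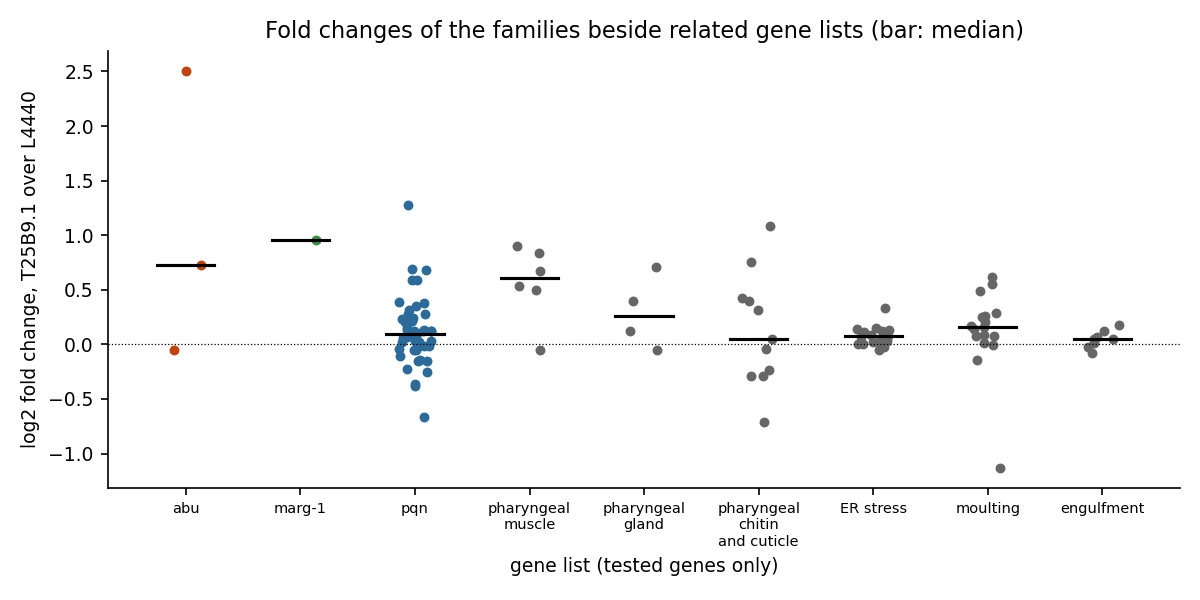
Log2 fold changes (T25B9.1 over L4440) of the tested abu, marg-1 and pqn genes beside those of 6 related gene lists; each point is a gene and the bar is the median. The pharyngeal muscle genes have a median of 0.61, against 0.10 for the pqn genes and 0.07 for the endoplasmic reticulum stress genes.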

How the data were processed

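The deposited table gives raw read counts for each gene in whole numbers. The submitters' processing notes name build WBcel235, featureCounts 1.4.6-p4, STAR 2.4.1d and bcl2fastq 1.8.4. The kit does not mark strand, so reads of overlapping genes cannot be told apart. Symbols came from a table of names (43693 of 46748 identifiers matched), and positions and exon lengths from Ensembl release 115 on WBcel235 (46449 found). The test was edgeR 4.0.16 in R 4.3.3 (robust quasi-likelihood, TMM factors, filterByExpr with a minimum count of 10, Benjamini-Hochberg adjustment over 13494 genes), checked on simulated data. The SE was taken as the size of the log2 fold change over the root of the F statistic. With 3 libraries a group, exact permutation reaches no p under 0.1, so only the model over all genes was used. Alternatives were RLE and upper-quartile factors, 2 other filters, DESeq2 1.42.0, limma-voom (limma 3.58.1) and leaving out each library.

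Libraries of 1 group differed by 6.18 to 40.8 times sampling noise (chi-square per degree of freedom), so none was merged with another. Named genes are marg-1, every tested abu gene, each member past the threshold and the 6 pqn genes of highest CPM. Also named are 6 preset genes of the related lists and the target T25B9.1. Of the list genes, myo-1, tni-4, idpc-2, idpp-14, idpp-15, idpp-16 and mlt-7 were named after their values were seen. So were pqn-24, pqn-67, pqn-73, abu-8, abu-11 and the long pqn genes. Members and lists were chosen with earlier results of these data known. The deposited RPKM table and protein or promoter sequences were not used here.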

Additional observations from a re-analysis of the deposited data

How the results depend on the processing

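Of 256 alternative values of the named genes, 242 stayed on the same side of the threshold. Of these, 228 kept their direction and 14, in genes that were not called, changed sign. Another 13 lost the call (marg-1 and pqn-94, above), 1 gained it (myo-2) and none reversed a call. The calls of abu-10, pqn-31 and pqn-36 held in each alternative that could test them. There were 12 for abu-10, with edgeR, DESeq2 or limma-voom adjusted p up to 0.0300. There were 13 each for pqn-31 (up to 0.0395) and pqn-36 (up to 0.0201) by the same tests. In the main fit abu-10 passed the count filter only through the group where it was high, so its 12 calls are not independent support. With a mean of at least 50 counts no abu gene could be tested, so 0 abu genes and 2 members were called and the abu median has no value. With no filter 719 of 22684 genes were called, where the main fit called 461 of 13494. Leaving out 1 library gave 272 to 517 called genes of 13476 to 13780 tested, with 3 or 4 members and 1 abu gene. The abu median then ran from 0.27 (without L4440 replicate 3) to 1.03 (without L4440 replicate 2), and the pqn median from 0.018 (without L4440 replicate 3) to 0.15. The number of tested abu genes also changed, with 4 in the fit that gave 0.27 and 3 in the fit that gave 1.03. The labels give no replicate numbers, and those used here follow accession order. A replicate block of consecutive library numbers in the titles, added after seeing the data, called 597 genes and the same counts of members (5), abu genes (1) and pqn genes (3), with medians of 0.73 and 0.10. Deviations from the group mean correlated at -0.11, 0.16 and 0.30 within these pairs, and not every library correlated best with its own pair, so the numbers were not taken as pairing. Most abu genes are limited by depth, with at most a few counts per library.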
